A study of Mus musculus with 9 samples.

Results

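The genes described here encode the proteins of the mitochondrial ribosome. They were taken as every row of the deposited count table whose symbol begins with Mrpl or Mrps followed by a digit, which gave 78 of 11046 genes. The series profiled RNA from 3 untreated mouse tumour cell lines in culture, with 3 libraries (A, B and C) per line. 482N1 is a line of lung non-small-cell carcinoma, B16F10-BrM a brain-metastatic line of melanoma and E0771-BrM a brain-metastatic line of triple-negative breast cancer. All 3 carry the genotype label WT, and the growth medium of each held serum, antibiotics and amphotericin B. DMEM was the medium of 482N1 and B16F10-BrM, and RPMI 1640 with HEPES that of E0771-BrM, so a difference between E0771-BrM and another line cannot be told apart from a difference of medium. Each group is 1 line, and the labels do not say whether the libraries of a line came from separate cultures. The p-values measure the spread between these libraries only, which may be technical.

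As background, the mitochondrial ribosome makes the small set of respiratory chain proteins encoded in mitochondrial DNA. It has a large subunit, whose proteins carry the prefix Mrpl, and a small subunit, whose proteins carry Mrps. Their genes lie in the nucleus, and the proteins are imported and assembled onto ribosomal RNAs transcribed inside the organelle. Some of the proteins have a counterpart in the bacterial ribosome and others were added during the evolution of mitochondria. By this background, 50 of the 78 genes belong to the large subunit and 26 to the small one, Mrps36 is now known as a subunit of the 2-oxoglutarate dehydrogenase complex, and Mrpl23-ps1 is named as a pseudogene.

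Total counts lay between 7332390 and 9293348 per library. All 78 genes passed the filter on low counts, as did 11037 of the 11046 genes. Their median mean count was 450.8 per library, against 197.4 over all genes. Markers fixed for the labelled tissues were checked as summed normalised CPM (read counts scaled to library size). The 5 measured pigment cell genes summed to 24630 to 25480 CPM in B16F10-BrM, 103 to 162 in E0771-BrM and 2.77 to 28.1 in 482N1. The 2 measured epithelial keratins, Krt8 and Krt18, summed to 7289 to 7908 CPM in 482N1, 171 to 209 in E0771-BrM and 0 to 0.126 in B16F10-BrM. Krt18 had 3, 0 and 6 counts in the E0771-BrM libraries. The 3 measured lung markers summed to 105 to 117 CPM in 482N1 and at most 34.9 in the other lines, and the 3 measured mammary markers to 47.9 to 64.2 CPM in E0771-BrM and 91.7 to 110 in 482N1. The summed markers of immune cells reached 34.2 CPM and of endothelial cells 104 CPM, both in 482N1. Each of these sums held 2 measured genes that went opposite ways. In E0771-BrM against 482N1, the log2 fold change was 2.653 for the immune gene Cd68 and -1.596 for Cd14. It was 3.376 for the endothelial gene Egfl7 and -3.924 for Flt1. Cd68 and Egfl7 were highest in E0771-BrM. The other markers of these lists were not analysed here. Libraries A and C of 482N1 and of E0771-BrM held 142 to 353 counts of the pigment gene Dct, and library B of these lines 14 and 29. Their part in the results was not tested, and values from fits that kept library B alone of both lines are given where they differ. Such fits take their spread from the B16F10-BrM libraries alone. A call lost or gained in them may come from the smaller number of libraries, so for single genes only the log2 fold change is given. Ribosomal RNA of the cytoplasm (Rn18s) made up 12.3 ± 0.758% of 482N1 counts (mean ± SD, n = 3, as for all values with ± below except log2 fold changes, which carry their standard error). Its share was 7.24 ± 0.797% for B16F10-BrM and 7.44 ± 0.809% for E0771-BrM.

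Taken as a sum, the 78 genes stood lowest in the lung line. Their summed level was 4432, 4165 and 4181 CPM in libraries A, B and C of 482N1. It was 5098, 5147 and 5146 CPM in B16F10-BrM and 4899, 5108 and 4825 CPM in E0771-BrM. Every library of the brain-metastatic lines lay above every 482N1 library, and those of the brain-metastatic lines overlapped each other. The means were 4259 ± 150 CPM in 482N1, against 5130 ± 28.01 in B16F10-BrM and 4944 ± 147 in E0771-BrM, so the ratio to 482N1 was 1.205 for B16F10-BrM and 1.161 for E0771-BrM. In a bulk sample, less RNA per cell and fewer cells of a kind cannot be told apart. As a share of all counts the genes took 0.381 ± 0.0164%, 0.543 ± 0.00494% and 0.523 ± 0.0152% in the order 482N1, B16F10-BrM and E0771-BrM. With Rn18s and the mitochondrial ribosomal RNAs left out of the total, the shares were 0.455 ± 0.0135%, 0.607 ± 0.00525% and 0.577 ± 0.0115%.

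The RNAs that the organelle itself transcribes were ordered otherwise. The ribosomal RNAs mt-Rnr1, of the small subunit, and mt-Rnr2, of the large one, summed to 45800 ± 7208 CPM in 482N1, against 31270 ± 3841 in B16F10-BrM and 17010 ± 3540 in E0771-BrM. The libraries of the 3 lines did not overlap in this sum, but neither RNA alone separated all 3. Those of B16F10-BrM and E0771-BrM overlapped for mt-Rnr1, and those of 482N1 and B16F10-BrM for mt-Rnr2. The libraries were poly(A)-selected, and how completely these RNAs were captured was not measured. The 12 measured protein-coding genes of mitochondrial DNA summed to 19350 ± 742 CPM in 482N1, against 20880 ± 2762 in B16F10-BrM and 10220 ± 1014 in E0771-BrM. The sum of the nuclear ribosomal protein genes was thus higher in E0771-BrM than in 482N1 where both sums of organelle transcripts were lower.

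**Figure D1:**
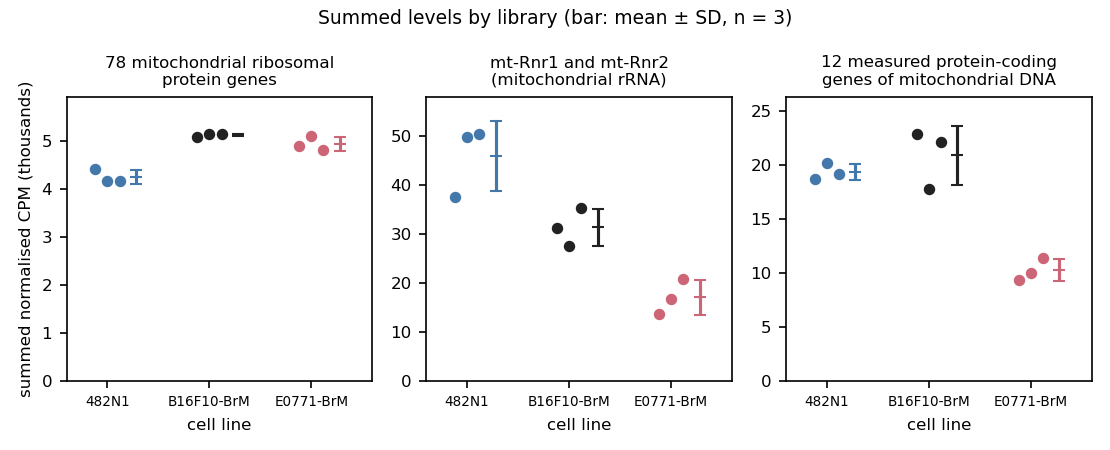
Summed normalised CPM in units of 1000 (y axis) for the 78 mitochondrial ribosomal protein genes, the mitochondrial ribosomal RNAs and the 12 measured protein-coding genes of mitochondrial DNA, by cell line (x axis). Points are libraries A, B and C and bars the mean ± SD of 3; the ribosomal protein sum is lowest in 482N1, and both organelle sums are lowest in E0771-BrM.

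The first comparison set the melanoma line against the lung line. Of the 78 genes, 41 were higher and 20 lower in B16F10-BrM, and 17 did not pass the test (edgeR quasi-likelihood test, with adjustment over all genes by the Benjamini-Hochberg method and a threshold of 0.05). Over all genes tested, 77.8% passed it, 38% higher and 39.9% lower. The share of the 78 that passed, 78.2%, was thus close to that of all genes, while the higher share was 52.6% and the lower one 25.6%. The median log2 fold change was 0.34, against -0.04 over all genes, and the range ran from -1.37 to 2.36. A change of at least 2-fold was found in 17 genes upward and 2 downward (18.9% and 21.9% of all genes). Tested against a change of 1.5-fold in place of none, 22 (28.2%) were higher and 7 (8.97%) lower, against 23.1% and 25.8% of all genes.

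Mrps12, a protein of the decoding centre of the small subunit, had the largest increase. Its levels were 10.8, 12.04 and 13.1 CPM in libraries A, B and C of 482N1 and 61.3, 66.5 and 57.7 CPM in B16F10-BrM. All B16F10-BrM libraries lay far above all 482N1 libraries. The fold change was 5.15, or 2.36 ± 0.126 on the log2 scale (edgeR adjusted p = 2.28e-22). Mrpl20, whose counterpart is needed for early assembly of the large subunit in Escherichia coli, had 20.5, 25.4 and 22.6 CPM in 482N1 and 78.5, 72.1 and 88.9 in B16F10-BrM. That is a log2 change of 1.81 ± 0.108 (edgeR adjusted p = 2.07e-20). Mrpl36, a small zinc-binding protein of the large subunit, rose from 22.4 ± 1.73 to 77.6 ± 5.02 CPM, a log2 fold change of 1.79 ± 0.105. The mitochondria-specific small subunit proteins Mrps23 and Mrps25 were higher by 1.74 ± 0.1 and 1.47 ± 0.094 on the log2 scale. Of the large subunit, Mrpl18, Mrpl13 and Mrpl42 were higher by 1.46 ± 0.086, 1.44 ± 0.080 and 1.34 ± 0.090. The edgeR adjusted p of these 6 genes lay between 1.13e-21 and 1.75e-18.

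The largest decrease was in Mrpl45, which sits at the exit of the nascent-chain tunnel and holds the mammalian ribosome to the inner membrane. It had 210.1, 184 and 201 CPM in the 482N1 libraries and 75, 76.8 and 78.9 CPM in B16F10-BrM. The groups were far apart, and the log2 fold change was -1.37 ± 0.080 (edgeR adjusted p = 9.54e-21). Mrpl1, the protein of the L1 stalk through which spent tRNAs leave, had 20.5, 21.3 and 19.5 CPM in 482N1 and 9.17, 8.53 and 8.27 in B16F10-BrM, a log2 change of -1.24 ± 0.152 (edgeR adjusted p = 5.18e-10). These were the 2 genes that fell at least 2-fold. Mrpl24, near the tunnel exit, was lower by a log2 fold change of -0.99 ± 0.095. The other named decreases were Mrpl21 at -0.87 ± 0.087, the stalk-base protein Mrpl11 at -0.84 ± 0.097, Mrpl38 at -0.83 ± 0.108, Mrps35 at -0.81 ± 0.096 and Mrpl49 at -0.72 ± 0.101, with edgeR adjusted p between 1.14e-12 and 1.41e-08.

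**Figure D2:**
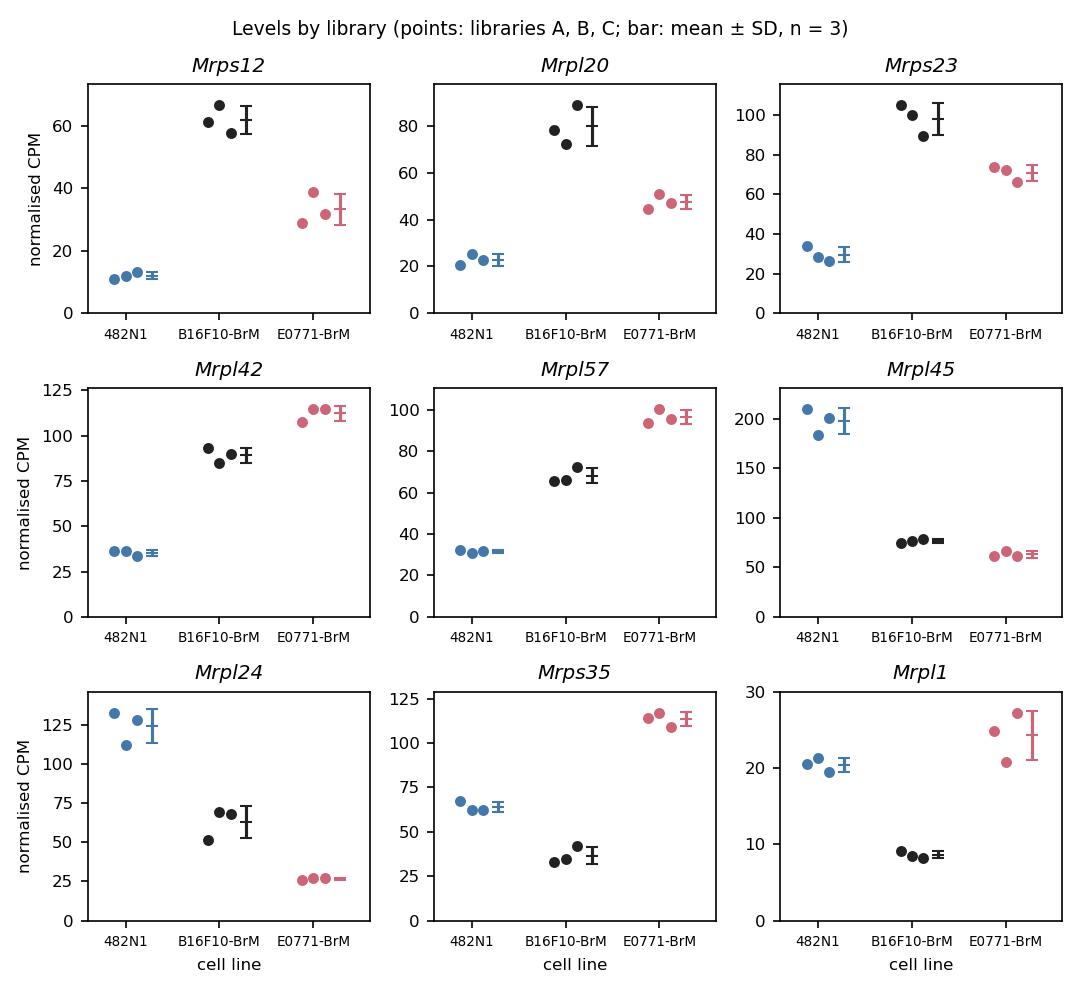
Normalised CPM (y axis) of 9 mitochondrial ribosomal protein genes in each library, by cell line (x axis); points are libraries A, B and C, bars the mean ± SD of 3. Mrps12, Mrpl20 and Mrps23 stand highest in B16F10-BrM, Mrpl42 and Mrpl57 in E0771-BrM, Mrpl45 and Mrpl24 in 482N1, and Mrps35 and Mrpl1 lowest in B16F10-BrM.

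The second comparison set the breast cancer line against the lung line. 40 of the 78 genes were higher and 20 lower in E0771-BrM, and 18 did not pass the test. Over all genes tested 78.1% passed it, 37.7% higher and 40.4% lower, against 51.3% and 25.6% of the 78. The median log2 fold change was 0.25 (-0.04 over all genes) and the range -2.22 to 1.67. At least 2-fold changes were found in 13 genes upward and 5 downward, against 18.3% and 21.3% of all genes. Against a change of 1.5-fold, 22 (28.2%) were higher and 8 (10.3%) lower, against 23.2% and 25.2% of all genes. When library B alone stood for 482N1 and for E0771-BrM, 34 (43.6%) were higher and 13 (16.7%) lower, and the shares of all genes also fell, to 31.4% and 33.6%. This comparison shares its 482N1 libraries with the first one, so that the values of both are given side by side below and the likeness of the 2 sets of fold changes is not a result.

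Mrpl42, a large subunit protein with no bacterial counterpart, had 36.1, 36.4 and 33.3 CPM in 482N1 and 107.7, 115 and 115 CPM in E0771-BrM. The 3 E0771-BrM libraries lay above all others, and the log2 fold change was 1.67 ± 0.090 (edgeR adjusted p = 3.9e-22). Mrpl57, another such protein, had 32.2, 30.7 and 31.8 CPM in 482N1 and 93.8, 100.4 and 95.8 in E0771-BrM, a log2 change of 1.61 ± 0.093 (edgeR adjusted p = 6.29e-21). Mrps12 was higher by 1.47 ± 0.132 on the log2 scale, with 33.2 ± 5.05 CPM in E0771-BrM. Mrpl52 was higher by 1.45 ± 0.085, Mrpl4, which lines the exit tunnel, by 1.29 ± 0.109, Mrps23 by 1.26 ± 0.102, Mrpl48 by 1.24 ± 0.105 and Mrps22 by 1.19 ± 0.104. The edgeR adjusted p of these 6 lay between 1.09e-20 and 4.64e-14. For Mrpl48 the libraries were close within each line, at 22.9 ± 0.167 CPM in 482N1, against 55.6 ± 0.163 in B16F10-BrM and 53.9 ± 1.62 in E0771-BrM.

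Mrpl24 had the largest decrease of any of the 78 genes in any comparison. It had 133, 112 and 128 CPM in 482N1 and 25.9, 27.2 and 27.1 CPM in E0771-BrM. The fold was 4.65 lower in E0771-BrM, a log2 change of -2.22 ± 0.105 (edgeR adjusted p = 1.64e-23). Mrpl45 had 61.5, 66.7 and 61.1 CPM in E0771-BrM, and against 482N1 its log2 fold change was -1.65 ± 0.082 (edgeR adjusted p = 1.69e-23). Both proteins lie around the exit of the tunnel, as does Mrpl23, the docking site of targeting factors in bacteria. Mrpl23 was lower by a log2 fold change of -1.39 ± 0.237, at 10.6 ± 1.54 CPM in 482N1 and 4.05 ± 1.79 in E0771-BrM. Its pseudogene Mrpl23-ps1 had 22, 13 and 14 counts in 482N1 and 7, 5 and 5 in E0771-BrM, a log2 fold change of -1.53 ± 0.451. Reads of the gene and its copy may have been divided between them in counting, so both values are uncertain. With library B alone of both lines the log2 fold change of the pseudogene was -1.36. Mrpl34 was lower by a log2 fold change of -1.17 ± 0.083, Mrpl32, which in yeast is cut by a membrane protease before it enters the ribosome, by -0.84 ± 0.121, Mrpl38 by -0.83 ± 0.109 and Mrps24 by -0.72 ± 0.106. The edgeR adjusted p of these 6 genes beside Mrpl24 and Mrpl45 lay between 1.24e-17 and 0.00223.

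The third comparison set the breast cancer line against the melanoma line, both derived as brain-metastatic lines. 26 of the 78 genes were higher and 35 lower in E0771-BrM, and 17 did not pass the test. Of all genes tested 73.7% passed it, 37.2% higher and 36.5% lower, against 33.3% and 44.9% of the 78. The median log2 fold change was -0.09 (0.02 over all genes), and the range -1.49 to 1.63. Changes of at least 2-fold were fewer than in the comparisons with 482N1, with 3 genes upward and 6 downward (17.4% and 17.5% of all genes). Against a change of 1.5-fold, 7 (8.97%) were higher and 13 (16.7%) lower, against 21.8% and 21.1% of all genes.

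Mrps35, a mitochondria-specific protein of the small subunit, differed most. It had 114, 117 and 109.1 CPM in E0771-BrM and 33.0, 34.6 and 41.9 in B16F10-BrM, with 67.3, 62.3 and 62.0 in 482N1. The 3 lines did not overlap, and the log2 fold change of E0771-BrM over B16F10-BrM was 1.63 ± 0.094 (edgeR adjusted p = 5.66e-21). Mrpl1 was higher by 1.49 ± 0.150 and Mrpl21 by 1.05 ± 0.086. Mrpl43, Mrps18c, Mrpl16, Mrps5 and Mrps17 were higher by 0.86 ± 0.081, 0.78 ± 0.1, 0.77 ± 0.104, 0.73 ± 0.081 and 0.71 ± 0.092. The edgeR adjusted p of these 7 genes lay between 3.24e-15 and 8.4e-09.

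In the other direction, Mrpl55, a large subunit protein without a bacterial counterpart, had 15.0, 12.2 and 12.3 CPM in E0771-BrM and 40.3, 36.5 and 34.0 in B16F10-BrM. Its log2 fold change was -1.49 ± 0.130 (edgeR adjusted p = 1.94e-14), with 482N1 between the other lines at 18.01 ± 0.607 CPM. Mrps24, at the entry of the mRNA channel, had 26.9, 27.2 and 25.7 CPM in E0771-BrM and 67.8, 62.2 and 61.4 in B16F10-BrM, a log2 change of -1.26 ± 0.103 (edgeR adjusted p = 1.98e-15). Mrpl24 was lower by a log2 fold change of -1.23 ± 0.107, Mrpl44 by -1.17 ± 0.159, Mrpl36 by -1.09 ± 0.099, Mrps11 by -0.98 ± 0.186 and Mrpl23 by -0.92 ± 0.244, with edgeR adjusted p between 4.52e-14 and 0.000886. Mrpl23-ps1 was at a log2 change of -1.43 ± 0.451 (edgeR adjusted p = 0.00435).

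**Figure D3:**
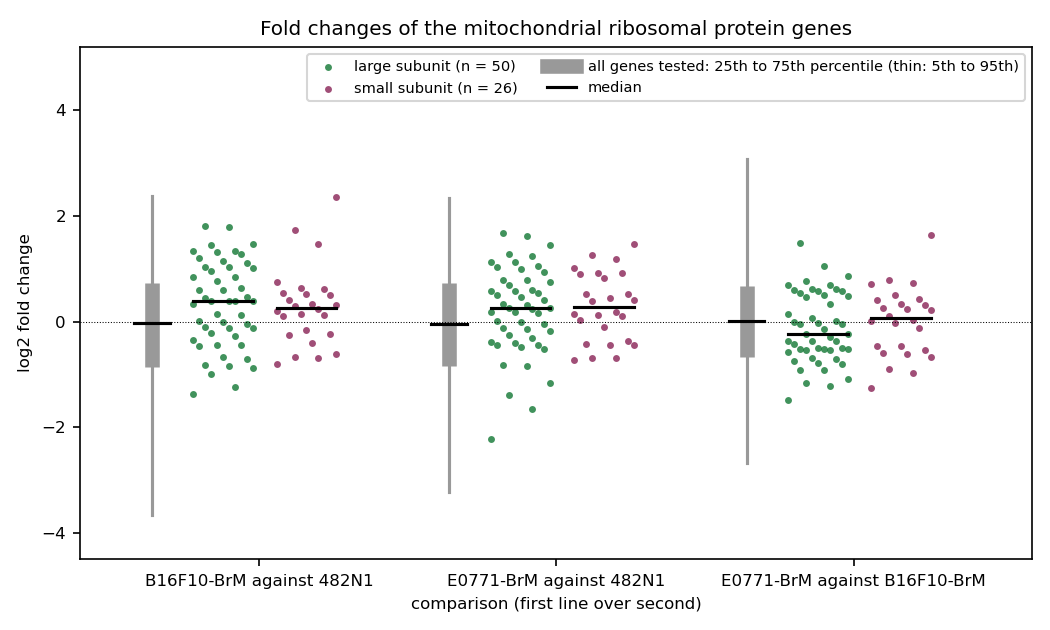
Log2 fold change (y axis) of the 50 large subunit and 26 small subunit genes in each of the 3 comparisons (x axis), with the median of each as a black line. Grey bars give the 25th to 75th percentile of all genes tested and thin lines the 5th to 95th; both subunits have medians above 0 against 482N1, and Mrps12 is the highest point.

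Looking across the lines, 73 of the 78 genes differed among the 3 lines in the joint test, against 92.1% of all genes. 74 (94.9%) passed at least 1 pairwise test, against 93.9% of all genes, 37 (47.4%) passed all 3, against 47.4%, and 4 (5.13%) passed none, against 6.12%. Fold changes of at least 2-fold in either direction were found in 19, 18 and 9 genes in the order of the comparisons above, which is 24.4%, 23.1% and 11.5% of the 78 against 40.8%, 39.6% and 34.9% of all genes. The libraries of the lines compared did not overlap for 63, 64 and 63 of the 78, against 78.7%, 78.5% and 75.5% of all genes.

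482N1 stood at the bottom more often than the other lines. In 30 genes (38.5%) all 3 libraries of 482N1 lay below the 6 others, which held for 24.3% of all genes, and in 9 (11.5%) above them, which held for 26.8%. B16F10-BrM lay above the 6 others in 26 genes (33.3%, against 21.9%) and below them in 13 (16.7%, against 22.7%). E0771-BrM lay above in 21 (26.9%, against 21.4%) and below in 15 (19.2%, against 21.2%). In 41 genes (52.6%) the 3 lines were fully apart, against 49.7% of all genes. The order 482N1, E0771-BrM, B16F10-BrM from low to high was found in 14 (17.9%, against 8.73%), the order 482N1, B16F10-BrM, E0771-BrM in 9 (11.5%, against 8.6%) and the order B16F10-BrM, 482N1, E0771-BrM in 7 (8.97%, against 6.89%). E0771-BrM was lowest and B16F10-BrM highest in 5 (6.41%, against 6.7%). 482N1 was highest in the other 6, with E0771-BrM lowest in 4 (5.13%, against 8.45%) and B16F10-BrM lowest in 2 (2.56%, against 10.3%).

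The genes that passed no pairwise test were Mrps2, Mrpl46, Mrpl10 and Mrps28. Mrps2, which lies at the mRNA exit side of the small subunit, had 35.0 ± 0.737 CPM in 482N1, against 38.7 ± 2.41 in B16F10-BrM and 39.5 ± 2.82 in E0771-BrM. Mrpl46, of the central protuberance, had 32.5 ± 5.14, 29.6 ± 0.716 and 29.6 ± 3.06 CPM, and Mrpl10, which carries the L7/L12 stalk, 28.5 ± 1.36, 26.1 ± 0.694 and 28.8 ± 3.59 CPM. The SEs of these 3 were 0.105 to 0.120 on the log2 scale. Mrps28, named after its values were seen, had 26, 35 and 28 counts in 482N1, against 80, 27 and 45 in B16F10-BrM and 41, 9 and 41 in E0771-BrM, and its SE of 0.419 to 0.453 was about 4 times that of the other 3.

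**Figure D4:**
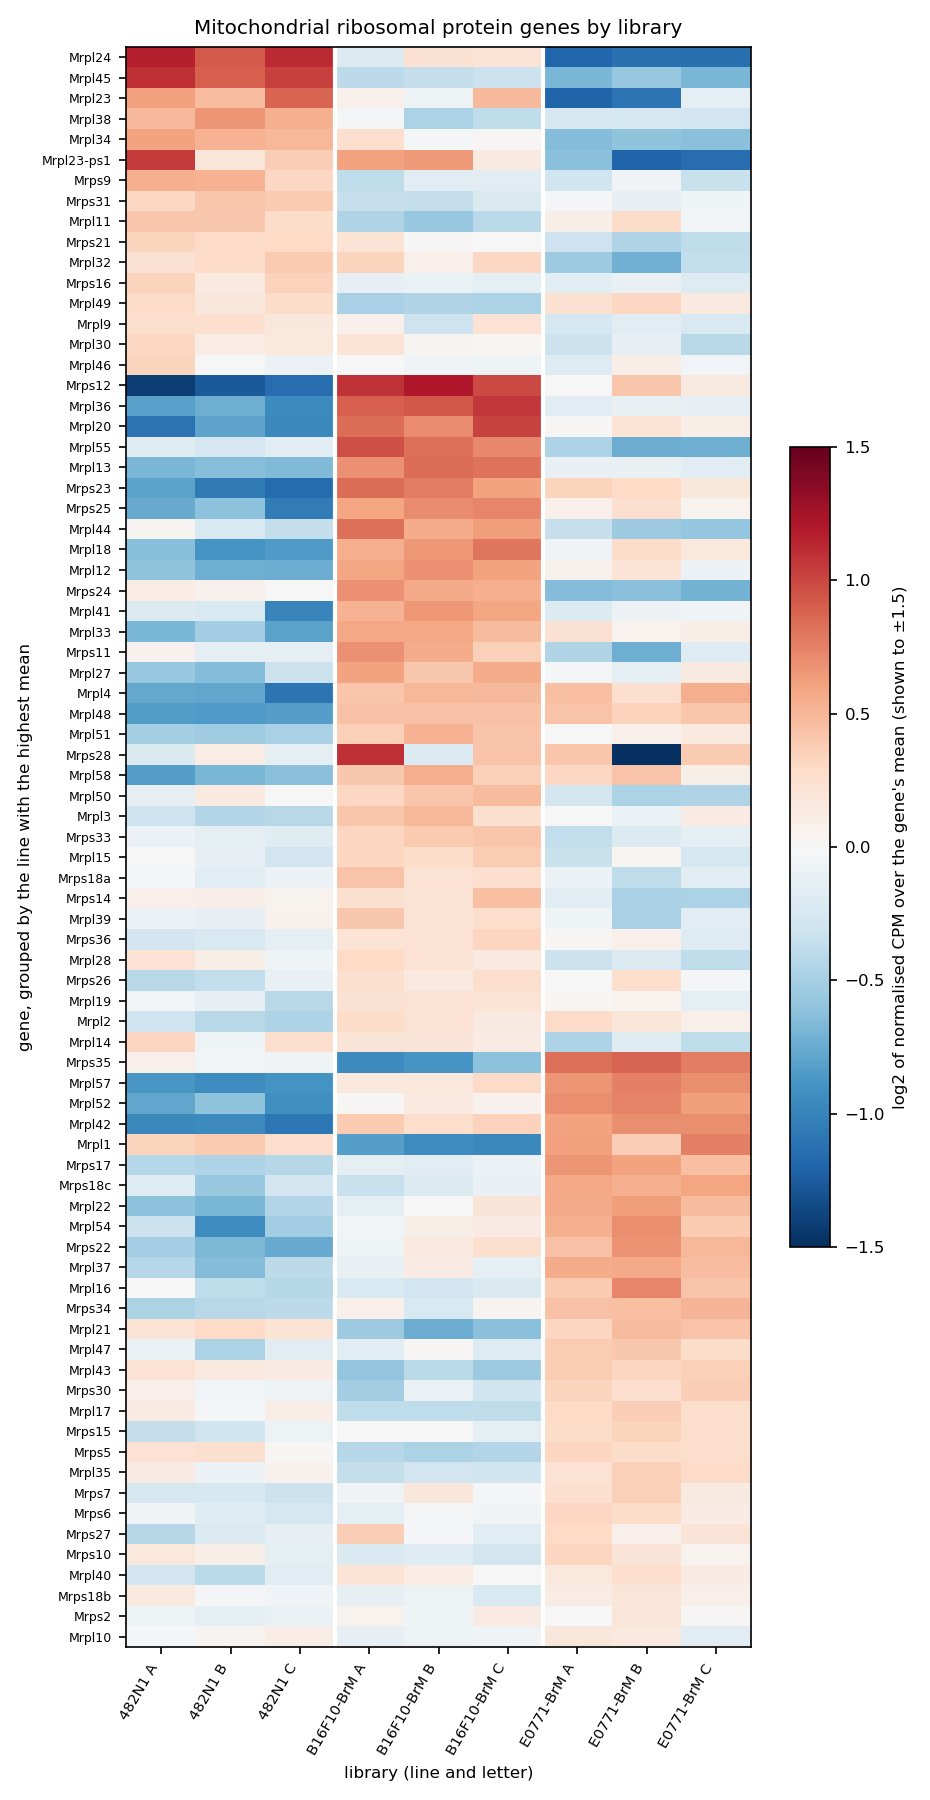
Each of the 78 genes (y axis) in each of the 9 libraries (x axis) as log2 of normalised CPM over the gene's mean across libraries, red above and blue below, shown to ±1.5. Genes are grouped by the line with the highest mean; libraries of a line resemble each other for most genes, and Mrps28 varies within B16F10-BrM and E0771-BrM.

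By subunit, 28 of 50 large subunit genes were higher and 13 lower in B16F10-BrM against 482N1, and 12 and 7 of 26 small subunit genes. In E0771-BrM against 482N1 the counts were 27 and 13 of the large subunit and 13 and 6 of the small one, and in E0771-BrM against B16F10-BrM 16 and 25 of the large and 10 and 8 of the small. In the order of the comparisons, 82%, 80% and 82% of the large subunit genes and 73.1%, 73.1% and 69.2% of the small subunit genes were called, near the 77.8%, 78.1% and 73.7% of all genes. The median log2 fold changes were 0.39, 0.25 and -0.23 for the large subunit and 0.26, 0.28 and 0.07 for the small one. The summed level of the large subunit genes was 1.92 ± 0.0375 times that of the small subunit genes in 482N1, 2.13 ± 0.0284 times in B16F10-BrM and 1.96 ± 0.0355 times in E0771-BrM. The lowest ratio in B16F10-BrM, 2.10, lay above the highest in the other lines, 1.99. Among genes with a bacterial counterpart (47), 20 were higher and 13 lower in B16F10-BrM against 482N1, and among those without one (29), 20 and 7. In E0771-BrM against 482N1 the counts were 21 and 14 of 47, and 19 and 5 of 29. The shares higher were 42.6% and 44.7% of those with a counterpart and 69% and 65.5% of those without, against 38% and 37.7% of all genes. The difference between these classes was not tested.

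The counts of the short lists that follow are to be read against the shares of all genes, which were 38% higher and 39.9% lower in B16F10-BrM against 482N1, 37.7% and 40.4% in E0771-BrM against 482N1, and 37.2% and 36.5% in E0771-BrM against B16F10-BrM. Genes of the decoding site and the mRNA channel went different ways. Of 5 (Mrps2, Mrps5, Mrps7, Mrps12 and Mrps24), 3 were higher and 1 lower in B16F10-BrM against 482N1, 2 higher and 1 lower in E0771-BrM than in 482N1, and 1 higher and 2 lower in E0771-BrM than in B16F10-BrM. In the same order their median log2 fold changes were 0.30, 0.17 and 0.03 (-0.04, -0.04 and 0.02 over all genes, for this and the lists below). Mrps5, which lines the mRNA entry with Mrps24, had 118 ± 9.52 CPM in 482N1, against 77.4 ± 1.32 in B16F10-BrM and 129 ± 2.94 in E0771-BrM. It was lower in B16F10-BrM than in 482N1 by a log2 change of -0.61 ± 0.081 (edgeR adjusted p = 3.84e-09). Mrps24 went the other way, with a log2 fold change of 0.54 ± 0.098 in that comparison (edgeR adjusted p = 2.91e-06). Mrps7, which binds the ribosomal RNA of the small subunit head, was higher in E0771-BrM than in 482N1 by 0.52 ± 0.108. In B16F10-BrM against 482N1 it was higher by 0.30 ± 0.108, which no longer passed without library B of B16F10-BrM (0.22, edgeR adjusted p = 0.0933). With library B alone of the other lines this change was 0.26. In E0771-BrM against B16F10-BrM its log2 fold change was 0.22 ± 0.105 (edgeR adjusted p = 0.058). There it passed without library B of B16F10-BrM (edgeR adjusted p = 0.028) or library C of E0771-BrM (0.0393), and in limma-voom (0.221, adjusted p = 0.0433). With library B alone of 482N1 and E0771-BrM the change was 0.325.

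The stalks of the large subunit recruit translation factors (L7/L12) and release tRNAs (L1). Of the 4 measured genes of this list, 1 was higher and 2 lower in the first comparison, 1 and 1 in the second and 2 and 1 in the third. The median log2 fold changes were -0.48, 0.13 and 0.36. Mrpl12, the mammalian L7/L12 protein, which also binds the mitochondrial RNA polymerase, had 92.4, 84.5 and 83.8 CPM in 482N1, against 212, 226 and 213 in B16F10-BrM and 146, 161 and 132 in E0771-BrM. The 3 lines did not overlap. The log2 fold change was 1.32 ± 0.080 in B16F10-BrM against 482N1 (edgeR adjusted p = 4.07e-20) and 0.75 ± 0.081 in E0771-BrM against 482N1 (edgeR adjusted p = 1.3e-11). Mrpl11, at the base of this stalk, was lower in both, by -0.84 ± 0.097 and -0.25 ± 0.095. The second of these calls was lost without library C of E0771-BrM (edgeR adjusted p = 0.113). With library B alone of 482N1 and E0771-BrM that change was -0.13. Mrpl1 was lowest in B16F10-BrM and did not pass in E0771-BrM against 482N1 (0.25 ± 0.136, edgeR adjusted p = 0.0875), though it did without library B of E0771-BrM (0.35, adjusted p = 0.0299). Mrpl53, also in this list, was not analysed here.

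The central protuberance, the crown of the large subunit that faces the head of the small one, had 4 of 6 genes higher and 1 lower in both lines against 482N1, and 0 higher and 2 lower in E0771-BrM against B16F10-BrM. The share called was 83.3%, 83.3% and 33.3%, against 77.8%, 78.1% and 73.7% of all genes. Their median log2 fold changes were 0.72, 0.48 and -0.02. Mrpl18, whose bacterial counterpart binds the small ribosomal RNA of the crown, had 95.8 ± 9.04 CPM in 482N1, against 264 ± 23.7 in B16F10-BrM and 182 ± 21.1 in E0771-BrM. Mrpl48 is described above. Mrpl27, which reaches toward the catalytic centre, had 13.4, 12.6 and 15.8 CPM in 482N1, against 30.2, 26.4 and 29.2 in B16F10-BrM and 19.7, 17.9 and 21.8 in E0771-BrM. Its log2 fold change over 482N1 was 1.04 ± 0.135 in B16F10-BrM (edgeR adjusted p = 2.16e-09) and 0.50 ± 0.141 in E0771-BrM (edgeR adjusted p = 0.00133). With library B alone of 482N1 and E0771-BrM the latter change was also 0.50. Mrpl40 was higher by 0.40 ± 0.095 and 0.46 ± 0.095 in the same comparisons. Mrpl38 was the member that was lower in both.

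Around the exit tunnel and the membrane, 3 of 8 genes were higher and 4 lower in B16F10-BrM against 482N1, 3 and 3 in E0771-BrM than in 482N1, and 3 and 5 in E0771-BrM than in B16F10-BrM. Their median log2 fold changes were -0.16, -0.25 and -0.40. The list does not hold Mrpl4, which also lines the tunnel. With it, an alternative added after the data were seen, 4 of 9 genes were higher and 4 lower in the first comparison, 4 and 3 in the second and 3 and 5 in the third, and the medians were 0.13, -0.18 and -0.28, so the sign of the first depends on that choice. Beside Mrpl24 and Mrpl45, Mrpl22, which reaches into the tunnel wall, had 14.6, 13.8 and 16.5 CPM in 482N1, against 20.2, 22.5 and 25.5 in B16F10-BrM and 33.0, 34.5 and 30.9 in E0771-BrM. The order was the same in every library, and the log2 fold change over 482N1 was 0.60 ± 0.134 and 1.13 ± 0.130 (edgeR adjusted p = 8.38e-05 and 7.86e-11). Mrpl44, a relative of ribonuclease III beside the exit, had 11.8 ± 1.69, 21.2 ± 2.08 and 9.46 ± 0.831 CPM. It was higher in B16F10-BrM than in 482N1 by 0.85 ± 0.154. In E0771-BrM against 482N1 its log2 fold change was -0.32 ± 0.171 (edgeR adjusted p = 0.086), which passed without library C of 482N1 (adjusted p = 0.0479). Mrpl17 was lower in B16F10-BrM than in 482N1 by -0.45 ± 0.085 and higher in E0771-BrM by 0.24 ± 0.083. Mrpl47 was higher in E0771-BrM than in 482N1 by 0.59 ± 0.094 and did not pass in B16F10-BrM (0.13 ± 0.095, edgeR adjusted p = 0.21). The latter change was 0.37 with library B alone of the other lines. Mrpl39 was higher in B16F10-BrM than in 482N1 by 0.34 ± 0.120, a call lost without library A of B16F10-BrM (adjusted p = 0.0575). Mrpl23 passed in B16F10-BrM against 482N1 with a log2 change of -0.47 ± 0.213 (edgeR adjusted p = 0.0413) and overlapping libraries. It did not pass in DESeq2 (adjusted p = 0.081), with upper-quartile scaling (0.0759), or without library A (0.0583) or C (0.174) of 482N1 or A (0.119) or B (0.15) of B16F10-BrM. With library B alone of the other lines its log2 fold change was -0.28. Mrpl45 was lower in E0771-BrM than in B16F10-BrM by -0.28 ± 0.084, and by -0.20 when library B alone stood for 482N1 and E0771-BrM.

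The 3 proteins of the S18 family do not share a site in the ribosome: Mrps18a sits in the large subunit and Mrps18b and Mrps18c in the small one. Mrps18c had 43.1, 33.2 and 40.7 CPM in 482N1, against 39.2, 43.0 and 45.6 in B16F10-BrM and 73.7, 71.3 and 74.7 in E0771-BrM. E0771-BrM lay above all other libraries, with a log2 fold change over 482N1 of 0.91 ± 0.101 (edgeR adjusted p = 3.28e-11). In B16F10-BrM against 482N1 its change of 0.13 ± 0.105 did not pass, and was 0.36 with library B alone of the other lines. Mrps18a was higher in B16F10-BrM than in 482N1 by 0.40 ± 0.121 and lower in E0771-BrM than in B16F10-BrM by -0.52 ± 0.122. Mrps18b differed between E0771-BrM and B16F10-BrM by 0.27 ± 0.084 (edgeR adjusted p = 0.00453). Against 482N1 it passed in neither line, and in B16F10-BrM it did so only without library C of 482N1 (-0.20, adjusted p = 0.0477).

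Other genes have a place that the symbol does not tell. Mrps30 sits in the large subunit in spite of its name, and had 58.0 ± 3.19 CPM in 482N1, against 47.9 ± 7.01 in B16F10-BrM and 73.3 ± 2.99 in E0771-BrM. It was higher in E0771-BrM than in B16F10-BrM by 0.62 ± 0.098 on the log2 scale (edgeR adjusted p = 2.2e-07). Its change of -0.28 ± 0.099 in B16F10-BrM against 482N1 was lost without library A of B16F10-BrM (edgeR adjusted p = 0.128). In E0771-BrM against 482N1 its change was 0.34 ± 0.097. With library B alone of 482N1 and E0771-BrM these changes were -0.25 and 0.30. Mrpl58, a large subunit protein related to release factors that can free stalled chains, had 26.8, 29.6 and 30.8 CPM in 482N1, against 62.8, 69.5 and 60.7 in B16F10-BrM and 58.9, 64.2 and 50.7 in E0771-BrM. Both brain-metastatic lines stood apart from 482N1, by log2 fold changes of 1.14 ± 0.106 and 0.99 ± 0.107 (edgeR adjusted p = 9.81e-14 and 1.08e-11). Mrps36 was higher in B16F10-BrM than in 482N1 by 0.47 ± 0.096 (edgeR adjusted p = 2.43e-05). It was lower in E0771-BrM than in B16F10-BrM by -0.28 ± 0.095, a call lost without library C of E0771-BrM (edgeR adjusted p = 0.0774). With library B alone of 482N1 and E0771-BrM that change was -0.18. In E0771-BrM against 482N1 it did not pass (0.19 ± 0.098, adjusted p = 0.0745), but did with upper-quartile scaling (0.0467) or without library C of E0771-BrM (0.0256).

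Levels of different genes were compared per length of the principal transcript in the mouse annotation GENCODE M21, which was available for 77 of the 78. The median was 26.4 CPM per kilobase in 482N1, against 31.7 in B16F10-BrM and 28.7 in E0771-BrM. Mrps21 was highest in 482N1 and B16F10-BrM, at 545 and 465 CPM per kilobase, and Mrpl52 in E0771-BrM, at 392. The ratio of the highest to the lowest gene was 118 in 482N1, against 191 in B16F10-BrM and 80.7 in E0771-BrM. The median of the large subunit genes was 25.4, 33.2 and 29.3 CPM per kilobase in the 3 lines, and that of the small subunit genes 25.6, 27.3 and 27.98.

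Mitochondrial ribosomal proteins with other symbols were read from a separate list of 6, of which 5 were measured. Dap3, a GTP-binding protein of the small subunit head, had 130 ± 14.9 CPM in 482N1, against 75.5 ± 1.98 in B16F10-BrM and 135 ± 7.17 in E0771-BrM. It was lower in B16F10-BrM than in 482N1 by a log2 change of -0.79 ± 0.084 (edgeR adjusted p = 1.13e-11). Gadd45gip1 and Aurkaip1 were highest in E0771-BrM, where they exceeded 482N1 by 1.29 ± 0.090 and 1.00 ± 0.094 on the log2 scale. Of the 5, 3 were higher and 2 lower in B16F10-BrM against 482N1, 3 and 1 in E0771-BrM than in 482N1, and 3 and 1 in E0771-BrM than in B16F10-BrM, with median log2 fold changes of 0.24, 0.50 and 0.77.

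Assembly of the ribosome and handling of its RNAs need further nuclear genes. Of 28 such genes, 12 were higher and 5 lower in B16F10-BrM against 482N1, 12 and 4 in E0771-BrM than in 482N1, and 7 and 7 in E0771-BrM than in B16F10-BrM. Of this list 60.7%, 57.1% and 50% were called, less than the 77.8%, 78.1% and 73.7% of all genes. Its median SE was 0.179, 0.175 and 0.176, against 0.138 over all genes in E0771-BrM against 482N1. A change of a given size was thus harder to call, and the part of this in the lower shares was not tested. Their median log2 fold changes were 0.31, 0.09 and 0.08. Rpusd4, a pseudouridine synthase, had 4.88 ± 0.152 CPM in 482N1, against 6.18 ± 0.369 in B16F10-BrM and 25.8 ± 2.45 in E0771-BrM. Its log2 fold change in E0771-BrM was 2.40 ± 0.175 over 482N1 (edgeR adjusted p = 3.63e-17). Mrm3, a methyltransferase of the large subunit RNA, was higher in both lines than in 482N1, by 1.88 ± 0.249 and 1.68 ± 0.255. Lrpprc, which stabilises mitochondrial messengers, was higher by 1.53 ± 0.115 and 1.66 ± 0.115, and its partner Slirp by 1.39 ± 0.084 and 0.48 ± 0.087. Ngrn was lower in both, by log2 fold changes of -1.55 ± 0.128 and -1.15 ± 0.125.

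Translation factors of the organelle showed 6 of 14 higher and 4 lower in B16F10-BrM against 482N1, 8 and 3 in E0771-BrM than in 482N1, and 4 and 3 in E0771-BrM than in B16F10-BrM. That is 71.4%, 78.6% and 50% called, against 77.8%, 78.1% and 73.7% of all genes. As log2 fold changes, the list medians were 0.29, 0.65 and 0.11. Guf1, the mitochondrial relative of the bacterial factor LepA, was higher in both lines than in 482N1, by 1.89 ± 0.134 and 1.19 ± 0.141. Mtrf1l, a release factor, was higher by 1.44 ± 0.179 and 1.61 ± 0.178. Metap1d, which removes the first methionine, was lower by log2 fold changes of -0.95 ± 0.189 and -2.15 ± 0.219. Of 17 mitochondrial tRNA synthetases, 5 were higher and 7 lower in B16F10-BrM against 482N1, 2 and 6 in E0771-BrM than in 482N1, and 3 and 2 in E0771-BrM than in B16F10-BrM. The called share was 70.6%, 47.1% and 29.4%, against the same shares of all genes. The median SE of these genes was 0.186, 0.19 and 0.186, so the limit given for the assembly genes holds here too. Their medians were -0.14, -0.17 and -0.12. Cars2, for cysteine, was higher in both lines than in 482N1, by 1.43 ± 0.193 and 2.21 ± 0.183, and Wars2, for tryptophan, lower, by -1.37 ± 0.176 and -1.55 ± 0.182.

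Transcription and copying of mitochondrial DNA were covered by 8 genes. Of these, 4 were higher and 3 lower in B16F10-BrM against 482N1, 2 and 3 in E0771-BrM than in 482N1, and 3 and 4 in E0771-BrM than in B16F10-BrM. As log2 fold changes, the list medians were 0.08, -0.34 and -0.03. Tfam, which packages the DNA, and Polrmt, its RNA polymerase, were the 2 genes higher in E0771-BrM than in 482N1, by 0.72 ± 0.1 and 0.66 ± 0.144. The 3 lower ones were Tefm, Tfb2m and Twnk, with log2 fold changes of -0.98 ± 0.319, -0.751 ± 0.118 and -0.655 ± 0.173. In B16F10-BrM against 482N1 the largest called changes of this list were decreases, in Twnk (-1.113 ± 0.179) and Polg2 (-1.109 ± 0.319). Of the 12 measured protein-coding genes of mitochondrial DNA, 4 were higher and 3 lower in B16F10-BrM against 482N1, and 10 were lower and 0 higher in E0771-BrM than in either other line. Their median log2 fold change in E0771-BrM was -0.87 against 482N1 and -0.86 against B16F10-BrM. mt-Rnr1 was lower in both lines than in 482N1, by log2 fold changes of -0.84 ± 0.181 and -1.21 ± 0.182 (edgeR adjusted p = 0.00406 and 0.000634). Against 482N1, mt-Rnr2 passed in E0771-BrM (-1.52 ± 0.204, edgeR adjusted p = 0.000389) and not in B16F10-BrM (-0.456 ± 0.2, edgeR adjusted p = 0.0757). In E0771-BrM against B16F10-BrM, mt-Rnr2 passed (-1.064 ± 0.202, edgeR adjusted p = 0.0026) and mt-Rnr1 did not (-0.363 ± 0.18, edgeR adjusted p = 0.11).

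The regulators of mitochondrial gene expression in the list numbered 9. 2 were higher and 6 lower in B16F10-BrM against 482N1, 1 and 6 in E0771-BrM than in 482N1, and 4 and 4 in E0771-BrM than in B16F10-BrM. As log2 fold changes, the list medians were -0.67, -0.46 and -0.38. The coactivator Ppargc1a had 233, 322 and 241 counts in 482N1, against 1094, 1005 and 973 in B16F10-BrM and 2, 0 and 1 in E0771-BrM. It was thus highest in B16F10-BrM, with a log2 fold change of 1.83 ± 0.105 over 482N1 (edgeR adjusted p = 3.68e-21), and near 0 in E0771-BrM. Myc, a transcription factor of growth, had 22.9 ± 4.93 CPM in 482N1, against 3.66 ± 0.862 in B16F10-BrM and 43.4 ± 5.76 in E0771-BrM. Esrra, a nuclear receptor partner of Ppargc1a, was lower than in 482N1 in both lines, by log2 fold changes of -1.03 ± 0.183 and -2.08 ± 0.207. Yy1 was lower in both, by -0.41 ± 0.077 and -0.86 ± 0.078. Gabpa, an ETS-family factor, was lower in B16F10-BrM than in 482N1 by -0.86 ± 0.137 (edgeR adjusted p = 2.61e-07) and did not pass in E0771-BrM (-0.05 ± 0.130, edgeR adjusted p = 0.723). Nrf1, which was not among the largest called changes of this list, was higher in B16F10-BrM than in 482N1 by 0.39 ± 0.126 and lower in E0771-BrM by -0.47 ± 0.135.

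Promoters of these genes were read from RefSeq for the build GRCm38.p6, as 250 bases before to 50 after the start, and were found for 68 of the 78 genes (74 promoters). Words of known factors were searched on both strands: CCGGAAG for ETS factors, TGCGCA, which reads the same on both strands, for the core of NRF1 sites, and AAGATGG for YY1. The ETS word was present in 33.8% of the 74 promoters, against 19.2% of promoters of all measured genes. The shares were 29.7% against 14.5% for the NRF1 word and 17.6% against 7.28% for the YY1 word, and 59.5% against 35.1% held at least 1 of the 3. The word TATAAA of the TATA box was in 6.76% against 6.77%. A match is a description of letters and not of binding.

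The 5 promoters below are examples chosen after the values were seen, to set genes of either direction side by side, and are not a ranking. Those of Mrps12, Mrpl57 and Mrpl36 were from genes higher in both brain-metastatic lines than in 482N1, and those of Mrpl45 and Mrpl24 from genes lower in both. Capitals mark the matches to the 3 words.
Mrps12: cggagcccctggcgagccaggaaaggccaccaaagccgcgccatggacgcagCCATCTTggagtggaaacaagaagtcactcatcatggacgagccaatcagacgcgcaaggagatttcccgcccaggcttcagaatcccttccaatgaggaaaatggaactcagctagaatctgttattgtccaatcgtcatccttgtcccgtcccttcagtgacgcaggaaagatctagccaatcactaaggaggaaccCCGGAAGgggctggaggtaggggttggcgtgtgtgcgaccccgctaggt
Mrpl57: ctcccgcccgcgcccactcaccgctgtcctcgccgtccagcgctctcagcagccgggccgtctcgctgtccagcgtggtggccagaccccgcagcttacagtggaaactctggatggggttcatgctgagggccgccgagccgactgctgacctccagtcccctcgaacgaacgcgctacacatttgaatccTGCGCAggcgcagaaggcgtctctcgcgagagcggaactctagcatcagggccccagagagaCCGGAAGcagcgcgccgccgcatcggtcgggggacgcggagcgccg
Mrpl36: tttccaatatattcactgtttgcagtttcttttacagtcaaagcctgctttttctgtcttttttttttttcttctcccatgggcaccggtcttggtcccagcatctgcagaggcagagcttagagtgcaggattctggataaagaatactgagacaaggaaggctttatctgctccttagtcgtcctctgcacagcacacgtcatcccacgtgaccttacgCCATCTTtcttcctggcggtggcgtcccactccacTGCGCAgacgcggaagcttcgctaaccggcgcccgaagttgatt
Mrpl45: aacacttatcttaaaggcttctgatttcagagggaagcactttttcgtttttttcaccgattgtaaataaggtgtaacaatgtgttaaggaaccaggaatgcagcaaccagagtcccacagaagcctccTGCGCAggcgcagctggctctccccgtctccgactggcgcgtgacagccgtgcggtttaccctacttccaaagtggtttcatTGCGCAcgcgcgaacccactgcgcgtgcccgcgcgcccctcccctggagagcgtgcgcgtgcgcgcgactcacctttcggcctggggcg
Mrpl24: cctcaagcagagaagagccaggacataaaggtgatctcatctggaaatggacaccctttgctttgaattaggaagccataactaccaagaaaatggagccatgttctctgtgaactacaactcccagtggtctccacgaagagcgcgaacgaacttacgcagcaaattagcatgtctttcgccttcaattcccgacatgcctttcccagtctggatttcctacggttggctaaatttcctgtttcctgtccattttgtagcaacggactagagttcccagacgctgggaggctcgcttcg
In GRCm38.p6 they lie at chr7:28741772-28742071 on the minus strand (Mrps12) and, on the plus strand, at chr14:57825989-57826288 (Mrpl57), chr13:73330759-73331058 (Mrpl36), chr11:97315466-97315765 (Mrpl45) and chr3:87919294-87919593 (Mrpl24). Mrps12 held an ETS and a YY1 word, Mrpl57 an ETS and an NRF1 word, Mrpl36 an NRF1 and a YY1 word and Mrpl45 the NRF1 word at 2 places. Mrpl24 held none, which says only that these letters are not in this window.

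Whether the words went with the direction of change was tabulated and not tested. Of 25 genes with the ETS word, 16 were higher and 6 lower in B16F10-BrM against 482N1, and of 43 without it 19 and 12. Among all 1933 measured genes with the ETS word, 42.5% were higher and 32.4% lower in that comparison, and of the 6645 without it 37.1% and 41.2%. In E0771-BrM against 482N1 the members' counts were 18 and 3 of 25, and 17 and 15 of 43, and the shares of all genes 39.3% and 35.6% with the word and 38% and 42.1% without. For the NRF1 word the counts were 10 and 6 of 21 in B16F10-BrM, against 42.4% and 36.3% of all genes with it. Of the 47 members without it, 25 and 12 were called there. In E0771-BrM the counts were 9 and 8 of 21, against 37.1% and 41% of all genes with the word, and 26 and 10 of 47 without it. For the YY1 word they were 9 and 2 of 13 in B16F10-BrM, against 37.3% and 38.1%, and 26 and 16 of 55 without it. In E0771-BrM they were 8 and 2 of 13, against 38.5% and 38.6%, and 27 and 16 of 55 without it. In E0771-BrM against B16F10-BrM, 9, 7 and 5 members with the ETS, NRF1 and YY1 word were higher and 11, 8 and 6 lower. Of all genes with each word, 33.8%, 31.8% and 36.9% were higher there and 38%, 39.6% and 36.9% lower.

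Many of these genes start head to head with another gene. In GENCODE M21, 23 of the 78 had a protein-coding neighbour on the opposite strand whose start lay within 1000 bases, or overlapped by at most 300, and 21 of the neighbours were measured. In B16F10-BrM against 482N1 both genes of the pair passed the test in 10 pairs, 9 of them in the same direction. In E0771-BrM against 482N1 it was 11 pairs with 7 in the same direction, and in E0771-BrM against B16F10-BrM 10 with 7. Over all 648 measured head-to-head pairs, 67.2%, 64.1% and 69.1% of pairs with both genes called went in the same direction. Mrpl21 and Ighmbp2, Mrpl27 and Eme1, and Mrpl36 and Ndufs6 were among the same-direction pairs in B16F10-BrM against 482N1. They share 117, 75 and 30 exonic bases, so their reads may not have been told apart in counting. Mrpl57 and the kinetochore gene Ska3, whose starts lie 49 bases apart, were both higher in B16F10-BrM (1.11 and 1.46 on the log2 scale) and in E0771-BrM (1.61 and 1.33). Mrpl51 and the condensin gene Ncapd2, with starts 100 bases apart, had near-equal log2 fold changes of 0.95 and 0.92 in B16F10-BrM, and 0.58 and 0.52 in E0771-BrM. By contrast, Mrpl32 and the proteasome gene Psma2, 75 bases apart, went opposite ways in E0771-BrM against 482N1, at -0.84 and 1.37. Sars2, the mitochondrial seryl-tRNA synthetase, lies 172 bases from Mrps12, which had its largest increase in B16F10-BrM against 482N1. There Sars2 did not pass (0.36 ± 0.308, edgeR adjusted p = 0.283). Its counts were low, at 30, 35 and 12 in 482N1 and 46, 38 and 24 in B16F10-BrM, so its change is known with little precision.

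**Figure D5:**
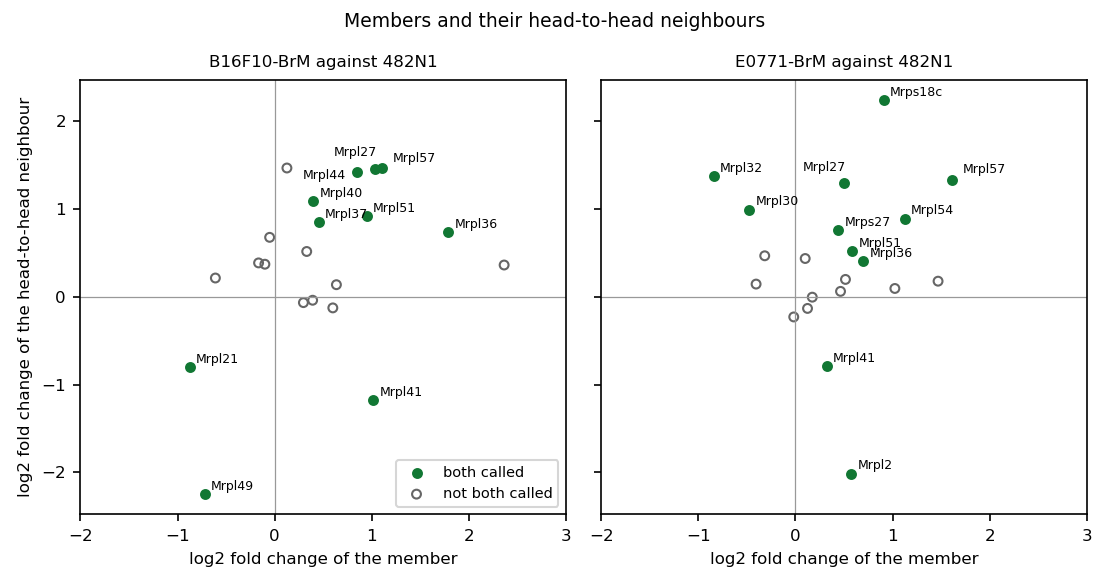
Log2 fold change of each of 21 mitochondrial ribosomal protein genes (x axis) and of its head-to-head neighbour (y axis) in B16F10-BrM (left) and E0771-BrM (right) against 482N1. Filled, named points are pairs in which both genes passed the test: 9 of 10 lie in the same-sign quadrants on the left and 7 of 11 on the right.

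Exons of 16 of the 78 genes overlap another protein-coding gene, and for 13 of them a measured one on the opposite strand. The library kit keeps the strand, but whether the counting used it is not given in the sources used here, so reads of overlapping genes may not have been told apart. Mrpl24 shares 594 exonic bases with Rrnad1, which was lower by log2 fold changes of -0.62 in B16F10-BrM and -1.23 in E0771-BrM against 482N1 (edgeR adjusted p = 0.00544 and 1.87e-06). Mrps25 shares 3533 bases with Nr2c2, which was at 0.23 and -0.31 in the same comparisons where Mrps25 was at 1.47 and 0.92. Mrpl13 shares 330 bases with Mtbp, which was higher in both lines than in 482N1, by 1.92 and 1.66. Mrpl19 shares 1962 bases with Gcfc2, Mrpl47 452 with Actl6a, Mrpl48 403 with Rab6a and Mrpl43 385 with Twnk. The values of all 13 genes with such an overlap are uncertain to that extent. Mrps6 overlaps Slc5a3 on its own strand by 159 bases, and Slc5a3 was lower in both lines, at -1.17 and -0.58, where Mrps6 was at 0.10 ± 0.084 (edgeR adjusted p = 0.295) and 0.41 ± 0.083 (edgeR adjusted p = 2.54e-05).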

How the data were processed

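Poly(A)-selected, stranded RNA-seq libraries of the 3 lines were sequenced by the authors, who deposited 1 table of raw read counts per gene symbol. Per the submitters' processing notes, FastQC, TopHat2 2.0.10, Bowtie 1.0.0, SAMtools 0.1.19, Cufflinks 2.2.1 and the mouse build GRCm39 were used. The counting tool, its annotation and its strand setting are not given in the sources used here. RNA integrity numbers were 7.6 to 9.4, per the labels' protocols. Every count column was matched to a sample by its title.

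Tests on the counts were run with edgeR 4.0.16 (R 4.3.3). The filterByExpr filter removed 9 genes, and the others were scaled by TMM and fitted over all 9 libraries with 1 coefficient per line and robust quasi-likelihood dispersions (common dispersion 0.0059). Pairs of lines and all 3 jointly were compared by 2-sided F tests, adjusted by the Benjamini-Hochberg method over 11037 genes at a threshold of 0.05. Standard errors are the absolute log2 fold change divided by the square root of F. "Do not overlap" means that every library of one line lay above every library of the other. Libraries of a line differed by more than counting noise (chi-square per degree of freedom 3.92 to 7.56), so none was taken as deposited more than once. This does not show separate cultures. The procedure was tested on simulated data.

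The members, lists and alternatives were chosen with earlier results of these data known. Named genes were, per comparison, the 8 members with the largest positive and negative log2 fold changes that passed and did not overlap, the 3 of highest level that passed nowhere, members of role lists, and Mrps30, Mrps36 and Mrpl58. Of other lists the 4 largest called changes per comparison were eligible, and Nrf1 was named outside this rule. Alternatives used DESeq2 1.42.0 and limma 3.58.1. Lengths, neighbours and promoters came from GENCODE M21 and RefSeq of an earlier build than the counts, so no position of the counts is given.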

Additional observations from a re-analysis of the deposited data

How the results depend on the processing

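Tested against a change of 1.5-fold (edgeR glmTreat), 29 members were called in B16F10-BrM against 482N1 (22 higher, 7 lower), 30 in E0771-BrM against 482N1 (22 higher, 8 lower) and 20 in E0771-BrM against B16F10-BrM (7 higher, 13 lower), which is 37.2%, 38.5% and 25.6% against 48.9%, 48.4% and 42.9% of all genes. When library B alone stood for 482N1 and for E0771-BrM, with its spread taken from the B16F10-BrM libraries, 13 members were lower in E0771-BrM than in 482N1, and the ratio of summed levels was 1.227 for E0771-BrM over 482N1 and 0.9959 over B16F10-BrM; the cause was not tested beyond the smaller number of libraries. Upper-quartile scaling gave a ratio of 1.257 for B16F10-BrM over 482N1. In all settings but the 1.5-fold test the counts of members called ranged from 55 to 62, 47 to 62 and 59 to 64 in the order of the comparisons, and their medians from 0.30 to 0.40, 0.20 to 0.29 and -0.13 to -0.06. The median of all genes moved by less than 0.1. Leaving out each library in turn gave 56 to 62, 59 to 60 and 60 to 64 members called, and ratios of summed levels of 1.19 to 1.23, 1.14 to 1.19 and 0.948 to 0.976.

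Deviations from the line mean correlated at -0.01 to 0.09 between same-letter libraries of different lines. Between libraries of different letters they correlated at -0.075 to 0.037. The ranges overlapped, and whether a letter marks a shared step was not tested. With the letter as a replicate block, 61, 61 and 62 members were called. Mrps7 in E0771-BrM against B16F10-BrM passed (0.217, edgeR adjusted p = 0.0466), and the block changed no other call of a named member.

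Of 2280 repeats of 114 comparisons of 50 members, 2190 kept direction and side of the threshold, 55 lost the call, 12 gained it and 23 changed sign. Of the 55 lost calls, 35 were in the test against a change of 1.5-fold, which asks for more than a difference. The repeats also hold the fits with library B alone, where a call may be lost through fewer libraries. No member comparison that changed sign passed the test as reported. In E0771-BrM against B16F10-BrM, Mrpl46 was at 0 with DESeq2 and with its size factors, 0.001 with the replicate block and 0.141 with library B alone, and against 482N1 at 0.101 in the last. Mrpl38 was at -0.036 with upper-quartile scaling, and -0.008 both without ribosomal RNA genes and with only the 2 lines; Mrps2 was at -0.011 with upper-quartile scaling, and Mrpl1 in E0771-BrM against 482N1 at -0.029 with library B alone. Without 1 library each, Mrpl46 ranged from -0.213 to 0.003 in B16F10-BrM and -0.214 to 0.002 in E0771-BrM against 482N1, and from -0.078 to 0.072 between these lines. Mrpl38 and Mrps2 ranged there from -0.083 to 0.153 and from -0.033 to 0.069, and Mrpl10 in E0771-BrM against 482N1 from -0.04 to 0.117. With Mrpl4 in the exit tunnel list, added after the data were seen, the median in B16F10-BrM against 482N1 was 0.13 in place of -0.16. The libraries of Mrps28 spread widely within B16F10-BrM and E0771-BrM, and the cause was not tested.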
